A study of Mus musculus with 6 samples.

Results

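The genes described here are the cytochrome P450 genes of families 1, 2 and 3, picked out by a rule on the symbol: Cyp, then 1, 2 or 3, then subfamily letters and a gene number. The count tables of the 6 liver libraries hold 59 such genes among 22609. Of these, 42 had at least 10 counts in 3 or more libraries and were followed for change, 17 were below that level, and 6 of the 17 had no count in any library. Total RNA from adult liver of C57BL/6 mice was sequenced in 3 wild type samples and in 3 samples of mice lacking Igfbp7 (IGFBP7 knock-out), made by Cre-loxP recombination. Igfbp7 encodes insulin-like growth factor binding protein 7, a secreted protein that the series relates to liver cancer. The labels give no Cre driver, so the cells in which the gene was removed are not known here, and sex, age in weeks, litter, feeding and collection time are not stated either. The labels do not say whether replicates are different animals, so p-values measure the spread between these samples, which may be technical.

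Cytochromes P450 are heme enzymes of the endoplasmic reticulum that insert oxygen into small molecules, with electrons passed to them by the reductase Por. Families 1 to 3 carry out most oxidation of drugs and other foreign chemicals in liver, and also act on steroids, retinoids, fatty acids and bile acids. Their genes are switched by ligand-sensing factors: the aryl hydrocarbon receptor for family 1, and the receptors CAR (Nr1i3) and PXR (Nr1i2) for much of subfamilies 2b, 2c and 3a. In mice many of them also differ between the sexes or between the central and portal zones of the lobule.

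Gene counts per library ran from 16712568 to 22419411. The targeted gene, Igfbp7, was counted 1438, 1705 and 1055 times in the wild type libraries (replicates 1 to 3, the order used throughout) but only 5, 2 and 9 times in the knockout libraries. All 12 hepatocyte markers listed for the tissue were tested, with a median log2 fold change of 0.12 and summed levels of 106650 to 126160 CPM (counts scaled to library size) in wild type and 115110 to 139300 CPM in knockout libraries. The 11 Kupffer cell and macrophage markers present all had lower means in the knockout, none of them at 0 in all libraries. They summed to 684.09 to 770.51 CPM in wild type and 360.55 to 565.57 CPM in knockout libraries. All 11 were lower with an unadjusted edgeR p under 0.05, against 7.35% of all tested genes. In 10 the knockout values lay entirely below wild type, against 10.1% of all tested genes. The 7 lymphocyte and 5 cholangiocyte markers tested were also all lower in the mean, at medians of -0.61 and -0.44 on the log2 scale. The 7 endothelial markers (2 higher, 5 lower) and 7 stellate markers (3 higher, 4 lower) had medians of -0.12 and -0.11. In each of these cell type lists 0 markers passed the adjusted threshold. The part of these cell types in the values below was not tested. In whole tissue, fewer cells of a type and less RNA per cell cannot be told apart. Clock genes differed in wild type replicate 1, where Arntl stood at 17.6 CPM, the remaining 5 libraries ranging from 1.91 to 2.85 CPM. They also differed between genotypes: of 13 tested, 5 stood higher and 3 lower in the knockout with an unadjusted p under 0.05, and 0 passed the adjusted threshold. All knockout values lay above wild type for Gm129, Nr1d2, Per3 and Tef and below it for Clock and Npas2. The part of collection time in the values below was not tested.

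Many of these genes lie in clusters with related copies, and the sequences bear on how well their reads can be told apart. For 49 genes another gene of the set could be compared by coding sequence, and in 14 the nearest was at least 95% identical. Identity was taken over the longer coding sequence, so pairs of unequal length score lower. Cyp2c40 scored 92.64% against Cyp2c68, with only 28 mismatched bases among those aligned. In the GENCODE M21 annotation (assembly GRCm38), subfamily 2c lies on chromosome 19, 2d on chromosome 15, 2j on chromosome 4, 3a on chromosome 5, and 2a, 2b, 2f2, 2g1, 2s1 and 2t4 are together on chromosome 7. For 41 of the 42 followed genes a transcript was matched. The median share of its 50-base stretches that also occur in a transcript of another gene was 10.5%, 16 of the 41 shared at least 25%, and 8 shared none. The extreme was Cyp2c40 at 72.1%. Alignments of reads placed at several positions are not in the gene counts, so the counts of such genes are low by an unknown amount. The pair Cyp2a5 and Cyp2a4, the coumarin 7-hydroxylase and the steroid 15-alpha-hydroxylase of mouse liver, shows the scale. Their coding sequences, both of 1485 bases, differ at 23 positions, and the longest stretch without a difference is 216 bases. The stretch from coding base 550 to 669 is shown because it holds 6 of the 23 differences, with the differing bases in capitals.
Cyp2a5: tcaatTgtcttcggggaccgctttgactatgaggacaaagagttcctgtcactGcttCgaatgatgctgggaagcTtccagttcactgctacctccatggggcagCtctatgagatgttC
Cyp2a4: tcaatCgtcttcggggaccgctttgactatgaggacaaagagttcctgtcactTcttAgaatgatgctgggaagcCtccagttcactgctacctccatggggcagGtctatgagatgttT

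The bases just before the transcription start were read from the RefSeq promoter table (GRCm38.p6) for 51 of the 59 genes. The letters TATAAA, searched on both strands from 250 bases before to 50 after the start, occurred in 22 of the 35 followed genes that have a window, against 13.6% of all 32851 windows of this length. In 15 of the 35 a match on either strand began 20 to 45 bases before the start. For Cyp2c70, Cyp2d9, Cyp2d10, Cyp2d11 and Cyp2d26 that match was on the strand opposite to the gene. The share of all windows with a match in this range was not computed. The nuclear receptor half-site AGGTCA was present in 11 of the 35, against 16.3% of windows, and the dioxin response core GCGTG in 6, against 32.4%. The STAT letters TTCNNNGAA were found in 0 of the 35 (8.3% of windows), the E-box CACGTG in 1 (7.15%) and the D-box TTATGTAA in 0 (0.938%). None of these 6 strings contains another. The 150 bases before the start are shown for 6 genes whose knockout values did not overlap wild type values or, for Cyp2a4, for comparison with Cyp2a5. Capitals mark any of the 6 motifs.
Cyp2a5, chr7:26835189-26835338, plus strand: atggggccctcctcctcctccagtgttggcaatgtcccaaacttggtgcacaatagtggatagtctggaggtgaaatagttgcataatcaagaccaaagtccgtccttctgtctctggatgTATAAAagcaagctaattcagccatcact
Cyp2a4, chr7:26307042-26307191, plus strand: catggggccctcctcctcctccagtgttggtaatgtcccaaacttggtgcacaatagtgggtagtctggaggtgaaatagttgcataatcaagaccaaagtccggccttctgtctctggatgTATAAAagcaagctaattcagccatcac
Cyp2e1, chr7:140763669-140763818, plus strand: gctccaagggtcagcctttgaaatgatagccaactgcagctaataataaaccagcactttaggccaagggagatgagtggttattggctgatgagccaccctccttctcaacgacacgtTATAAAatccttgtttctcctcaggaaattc
Cyp2c55, chr19:39006869-39007018, plus strand: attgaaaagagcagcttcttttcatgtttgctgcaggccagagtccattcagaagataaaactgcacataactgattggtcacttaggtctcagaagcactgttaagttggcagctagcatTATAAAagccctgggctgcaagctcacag
Cyp2j9, chr4:96591486-96591635, minus strand: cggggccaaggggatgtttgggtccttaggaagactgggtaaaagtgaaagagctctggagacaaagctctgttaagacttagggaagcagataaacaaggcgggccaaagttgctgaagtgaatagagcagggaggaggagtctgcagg
Cyp2j6, chr4:96553652-96553801, minus strand: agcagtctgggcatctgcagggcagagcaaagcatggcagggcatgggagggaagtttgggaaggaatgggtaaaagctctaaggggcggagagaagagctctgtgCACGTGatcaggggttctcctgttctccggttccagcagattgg

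Over 149 aligned bases the Cyp2a5 and Cyp2a4 sequences differ at 3, and in both TATAAA lies in the same surrounding letters, 28 bases before the annotated start in Cyp2a4 and 29 in Cyp2a5. Cyp2j9 and Cyp2j6 are neighbours on chromosome 4. Cyp2j6 holds the single E-box among the followed genes. A match is a description of the letters and not a site shown to be bound.

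Levels of these genes in wild type liver covered a wide range. Levels between genes are compared as CPM per kilobase of exon (GENCODE M21), over the 41 followed genes with a length. Of these, 18 had a wild type mean of at least 100, 15 lay from 1 to under 100, and 8 were under 1. Cyp2e1, the ethanol-inducible enzyme of central hepatocytes, was the highest at 3406 ± 109 CPM per kilobase (SD, n = 3). Cyp2f2, which activates naphthalene and is typical of portal hepatocytes, followed at 1088 ± 106.5 (SD, n = 3), and Cyp2d9, a male-biased testosterone 16-alpha-hydroxylase, at 810.7 ± 56.9 (SD, n = 3). The lowest Cyp2e1 library lay above the highest Cyp2f2 library, and the lowest Cyp2f2 library above the highest Cyp2d9 library. Cyp2d9 shares 29% of its 50-base stretches with other genes, Cyp2e1 4.76% and Cyp2f2 0%. The order of genes here is therefore that of the counted reads, and levels of genes with shared stretches may be too low. Next came Cyp2c29 at 571.6 ± 70.2 and Cyp1a2 at 489.4 ± 23.4 CPM per kilobase (SD, n = 3 each), whose wild type ranges overlapped. Cyp2d26, at 472.2 ± 18.7 CPM per kilobase (SD, n = 3), overlapped Cyp1a2 in turn. Cyp2a5 stood at 111.2 ± 33.0 CPM per kilobase (SD, n = 3) in wild type, whereas Cyp2a4, with nearly the same promoter letters, stood at 0.553. Just inside the count rule, Cyp2s1 was counted 8, 12 and 4 times in wild type libraries and 13, 10 and 12 times in knockout ones. Just outside it, Cyp2j8 was counted 1, 5 and 5 times and 1, 7 and 10 times. No gene below the rule exceeded 10 counts in any library.

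**Figure D1:**
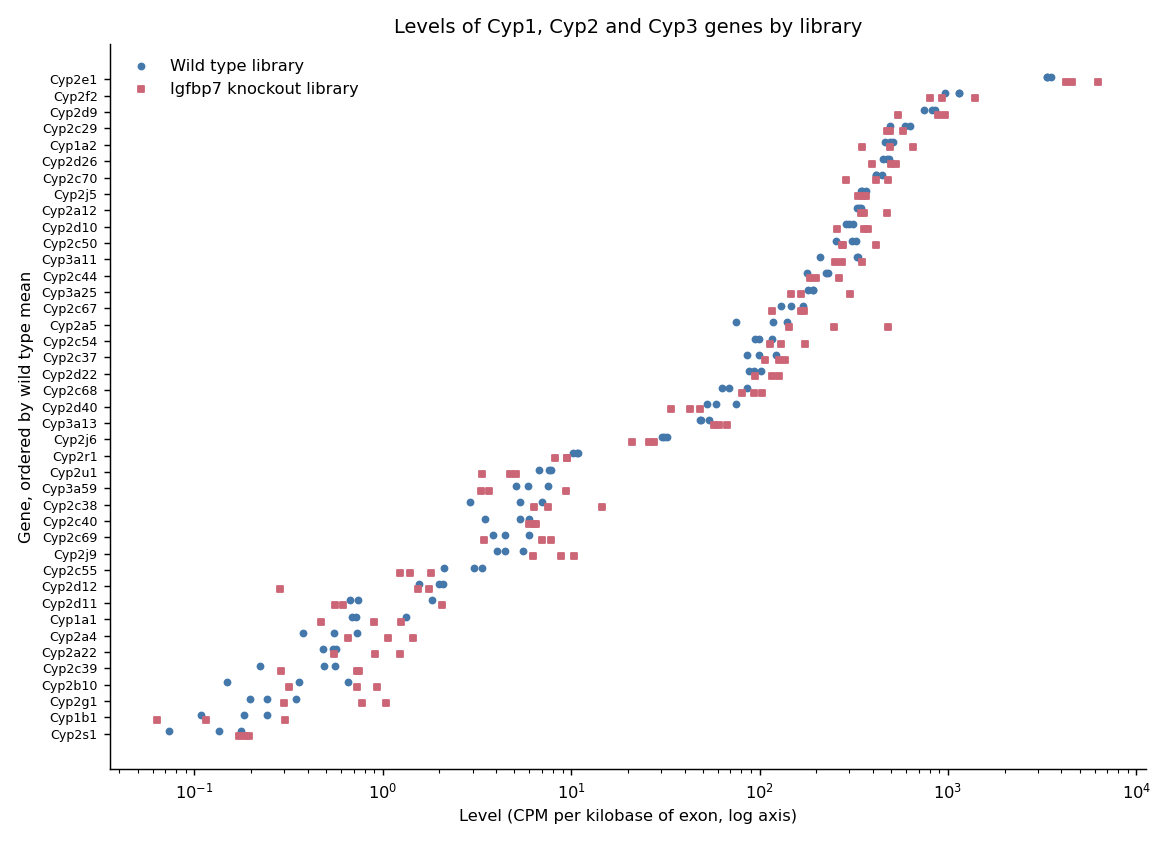
Level of 41 genes in each library, as CPM per kilobase of exon on a log axis, with wild type libraries as blue circles and Igfbp7 knockout libraries as red squares. Cyp2e1 is highest in all libraries, and its 3 knockout points (4218 to 6293) lie right of its 3 wild type points (3343 to 3532).

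As a group the P450 genes held a larger share of total gene counts in each knockout library than in any wild type library. The 59 genes held 1.927%, 1.981% and 1.923% of all gene counts in the wild type libraries and 2.102%, 2.602% and 1.985% in the knockout libraries. All 3 knockout values lay above the wild type values, with knockout replicate 3 barely above wild type replicate 2. That separation depended on the scaling. In summed CPM, which uses TMM library sizes, the 42 followed genes stood at 18950, 19900 and 18551 in wild type libraries. The knockout libraries stood at 22318, 26858 and 19073 CPM, with replicate 3 below wild type replicate 2. The mean difference in share was 0.286 percentage points, and 0.0998 without knockout replicate 2. Cyp2e1 alone made up 32.4% to 33.2% of these counts in wild type and 37.7% to 43.1% in knockout libraries. Without it, the other genes held 1.29% to 1.34% of the wild type counts against 1.31%, 1.48% and 1.18% in the knockout libraries, which overlap. By subfamily, the 2c genes held 0.373 ± 0.014% in wild type and 0.366 ± 0.020% in knockout libraries (SD, n = 3 each), and the 2d genes 0.324 ± 0.008% and 0.328 ± 0.056%. The 2a genes held 0.0805 ± 0.0074% and 0.123 ± 0.045% (SD, n = 3 each), with knockout replicate 1 inside the wild type range. In summed CPM the 2a groups did not overlap, at 707.89 to 862.39 in wild type and 890.96 to 1770.3 in knockout libraries. The 2j genes held 0.0970 ± 0.0027% in wild type and 0.0913% in the knockout, where all 3 libraries were lower. The same held for the single genes Cyp2r1 and Cyp2u1. In summed CPM the 3 followed 2j genes overlapped, at 930.04 to 983.37 in wild type and 875.38 to 969.37 in knockout libraries. No test was made on these sums.

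**Figure D2:**
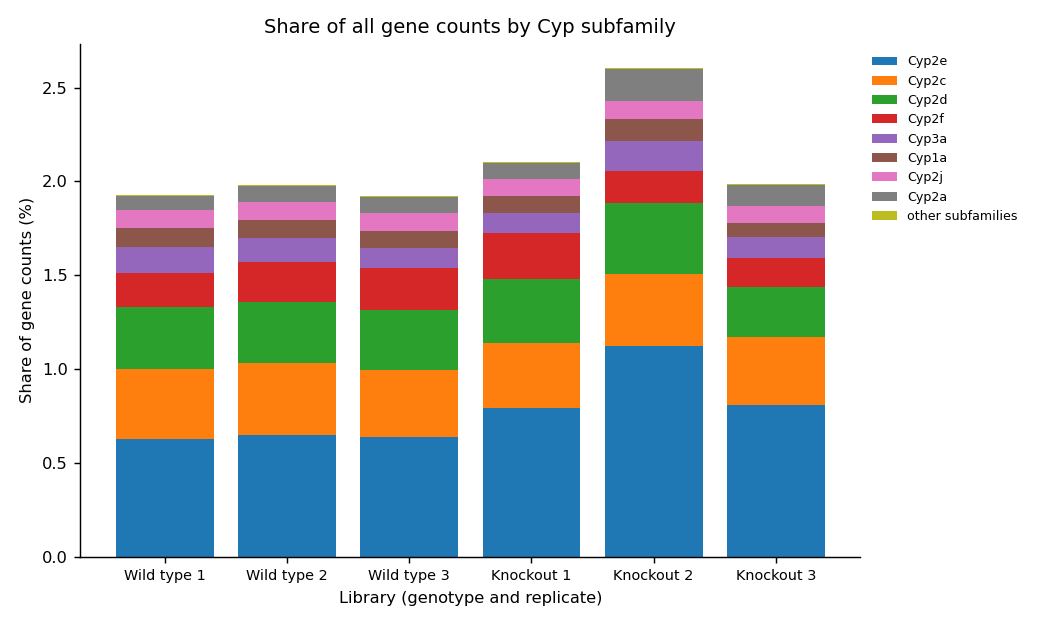
Share of all gene counts held by each Cyp subfamily, stacked, in the 6 libraries, in percent. The Cyp2e segment is taller in each knockout library than in any wild type library, and knockout replicate 2 has the tallest bar at 2.60%.

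No single P450 gene of these families passed the threshold between genotypes. By edgeR's quasi-likelihood test with Benjamini-Hochberg adjustment over 12522 genes, 0 of the 42 had an adjusted p under 0.05, against 0.216% of all tested genes (0.128% higher and 0.0878% lower), while DESeq2 called 6 of the 42 (14.3%), namely Cyp2e1, Cyp2d13 and Cyp2j9 higher and Cyp2c55, Cyp2d40 and Cyp2u1 lower. DESeq2 called 3.54% of its 12292 genes (1.96% higher and 1.58% lower). With an unadjusted p under 0.05, 11 stood higher and 4 lower in the knockout, 35.7% of the 42, where 15.4% of all tested genes had such a p (8.1% higher and 7.35% lower). Of these 15 genes, 7 kept such a p whichever of the 6 libraries was omitted: Cyp2a5, Cyp2c55, Cyp2d13, Cyp2d40, Cyp2j6, Cyp2j9 and Cyp2u1. The 15 were picked by p in the same libraries, and the share of all tested genes that kept it was not computed. The median log2 fold change was 0.12 over the 42 genes, with 28 above 0, and 0.001 over all tested genes, of which 50.3% were above 0. An absolute log2 fold change of at least 1 was reached by Cyp2a5 and Cyp2g1, and by 2.04% of all tested genes. Cyp2g1 and Cyp2s1, both among the 28 above 0, passed the count rule mainly through knockout libraries. Their direction follows in part from that rule, and Cyp2g1 is also among the 11 higher genes. The 3 knockout values lay entirely above the wild type values in 7 genes and entirely below in 5, 28.6% in all, against 20.7% of all tested genes (10.7% above and 10.1% below). Without wild type replicate 1, the library set apart by its clock genes, 8 genes had an unadjusted p under 0.05, 4 higher and 4 lower, with 10.9% of all tested genes. With total-count scaling, which moved all genes by a median of -0.05 on the log2 scale, 22 of the 42 were above 0.

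**Figure D3:**
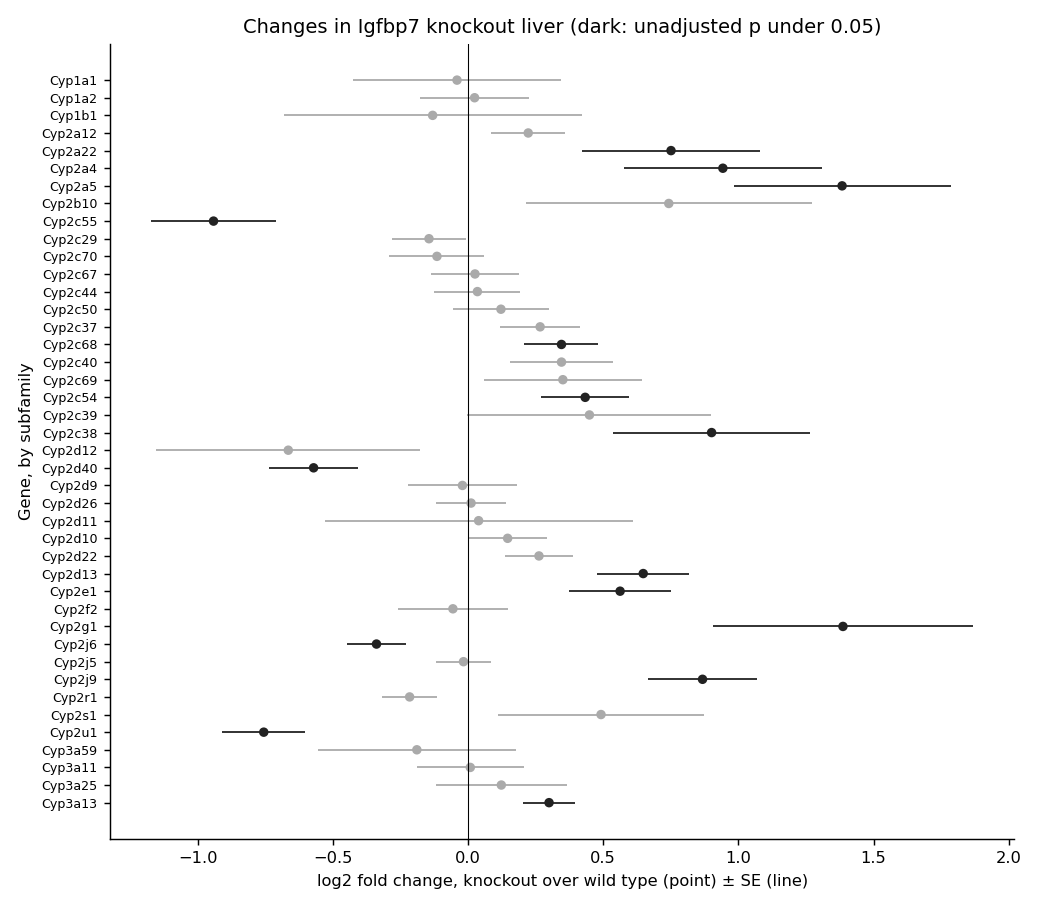
log2 fold change of each of the 42 followed genes, knockout over wild type, with its SE as a line, grouped by subfamily. Dark points are the 15 genes with an unadjusted p under 0.05, and none passed the adjusted threshold.

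Family 1, the aryl hydrocarbon receptor targets, had group means close to each other. Cyp1a2, the caffeine-metabolising enzyme of central hepatocytes, stood at 989, 959 and 900 CPM in wild type and 954, 1260 and 682 CPM in knockout libraries. The knockout libraries held both its highest and its lowest value, and its log2 fold change of 0.02 had a 95% interval of -0.43 to 0.48. Cyp1a1, the classic induced member, was counted 36, 43 and 64 times in wild type libraries and 53, 24 and 71 times in knockout ones. Cyp1b1, mainly expressed outside hepatocytes, had 7 to 32 counts in all 6. The other 3 tested target genes of this receptor had log2 fold changes from 0.06 to 0.22, and 0 of these had an unadjusted p under 0.05. For Ahr the log2 fold change was 0.13 ± 0.14 and for its partner Arnt 0.15 ± 0.11 (SE each).

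Subfamily 2a held the largest difference among the well-expressed genes. Cyp2a5 stood at 152, 282 and 238 CPM in wild type and 289, 965 and 499 CPM in knockout libraries. The groups did not overlap, but knockout replicate 1 lay close to wild type replicate 2 and knockout replicate 2 was 3.35 times knockout replicate 1. The log2 fold change was 1.38 ± 0.40 (SE), a 2.61-fold difference with an edgeR adjusted p of 0.166, and it was 0.81 without knockout replicate 2. Cyp2a4, with 38% of its stretches shared, was counted 18, 14 and 22 times in wild type libraries and 24, 34 and 51 times in knockout ones, a log2 fold change of 0.94 ± 0.37 (SE). Its near copy Cyp2a5 had 2850 to 17686 counts in the same libraries, and its part in the Cyp2a4 counts was not tested. Cyp2a12, a steroid 7-alpha-hydroxylase, stood at 554, 579 and 566 CPM in wild type and 600, 802 and 581 CPM in knockout libraries. Its groups did not overlap, though knockout replicate 3 and wild type replicate 2 nearly met, and its log2 fold change was 0.22 ± 0.14 (SE), or 0.06 without knockout replicate 2. Its near copy Cyp2a22 was at 0.953 ± 0.076 and 1.61 ± 0.61 CPM (SD, n = 3 each).

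Subfamily 2b, whose Cyp2b10 is the standard reporter of active CAR, was barely detected in both genotypes. Cyp2b10 was counted 24, 15 and 5 times in wild type libraries and 13, 26 and 37 times in knockout ones, which gave a log2 fold change of 0.74 ± 0.53 (SE). The ranges overlapped. Cyp2b9 had 1 to 6 counts, Cyp2b13 had 1 count in a single knockout library, and Cyp2b19 and Cyp2b23 had 0. The receptor gene itself, Nr1i3, stood at 50.7, 48.4 and 55.9 CPM in wild type and 111, 147 and 131 CPM in knockout libraries, and rose by edgeR with an adjusted p of 0.0119, though not without wild type replicate 2 (adjusted p = 0.0671). Of the 10 genes listed as CAR targets 8 were tested, with a median log2 fold change of 0.19, and with an unadjusted p under 0.05 for Cyp2a5 and Cyp2c54, both higher, and Cyp2c55, lower. The PXR gene Nr1i2 was at 0.28 ± 0.14 (log2 fold change, SE), and its 5 listed targets a median of 0.12.

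Subfamily 2c, the largest with 15 genes, of which 13 were followed, oxidises drugs, fatty acids and steroids. It held 10 positive and 3 negative log2 fold changes, with a median of 0.27. Cyp2c29, its most abundant gene, stood at 1274, 1196 and 998 CPM in wild type and 966, 999 and 1172 CPM in knockout libraries, a log2 fold change of -0.14 with a 95% interval of -0.45 to 0.16. Cyp2c55, a CAR and PXR target that is prominent in intestine, stood at 6.06, 6.69 and 4.21 CPM in wild type and 2.79, 2.46 and 3.58 CPM in knockout libraries. All knockout values were below all wild type values, with a log2 fold change of -0.94 ± 0.23 (SE) and an edgeR adjusted p of 0.121. Cyp2c38 stood at 15.4, 20.1 and 8.31 CPM in wild type and 21.7, 18.3 and 42.0 CPM in knockout libraries. These overlap, the log2 fold change was 0.90 ± 0.37 (SE), and it was 0.45 without knockout replicate 3. In RefSeq its span overlaps that of Cyp2c39, which lies on the opposite strand. The spans of Cyp2a4, Cyp2a12, Cyp2a22, Cyp2d11 and Cyp2g1 also overlap another RefSeq gene. Where exons overlap, reads may go to either gene or to none, and overlap of exons was not examined.

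Cyp2c54 and Cyp2c68, at log2 fold changes of 0.43 ± 0.16 and 0.35 ± 0.14 (SE each), had overlapping groups. Without knockout replicate 2, Cyp2c54 was at 0.24 and its unadjusted p was over 0.05. The close relatives Cyp2c37 and Cyp2c50 were at 0.27 ± 0.15 and 0.12 ± 0.18 (SE each). Of the remaining genes Cyp2c39, Cyp2c67 and Cyp2c69 had log2 fold changes of 0.45 ± 0.45, 0.03 ± 0.16 and 0.35 ± 0.29 (SE each). Cyp2c70, the enzyme that makes the mouse muricholic bile acids, stood at 716, 711 and 771 CPM in wild type and 709, 826 and 494 CPM in knockout libraries. Its log2 fold change was -0.12 with a 95% interval of -0.52 to 0.28. Cyp2c44, now named Cyp2c23, an arachidonic acid epoxygenase, had a log2 fold change of 0.03 with a 95% interval of -0.33 to 0.40.

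Subfamily 2d, whose human counterpart oxidises many drugs, held 5 positive and 3 negative log2 fold changes among 8 followed genes. Cyp2d13, listed by RefSeq as a transcribed pseudogene, stood at 167, 140 and 196 CPM in wild type and 230, 326 and 231 CPM in knockout libraries, without overlap. Its log2 fold change was 0.65 ± 0.17 (SE), with an edgeR adjusted p of 0.138. Cyp2d40 went the other way without overlap, at 87.0, 61.3 and 68.5 CPM in wild type and 49.9, 56.5 and 39.5 CPM in knockout libraries, a log2 fold change of -0.57 ± 0.16 (SE, edgeR adjusted p = 0.16). Cyp2d40 shares 24.1% of its 50-base stretches with other genes. For Cyp2d13 no transcript was matched, so sharing was not measured. The abundant Cyp2d9 stood at 1468, 1416 and 1280 CPM in wild type and 1515, 1657 and 932 CPM in knockout libraries, and Cyp2d26 had a log2 fold change of 0.01 with a 95% interval of -0.29 to 0.31. Cyp2d10 and Cyp2d22 were at 0.15 ± 0.15 and 0.26 ± 0.13 (SE each). The scarce Cyp2d12 was counted 62, 55 and 60 times in wild type libraries and 10, 53 and 52 times in knockout ones, so that 1 knockout library alone stood low.

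Cyp2e1, the most abundant P450 gene, was higher in each knockout library than in any wild type library. It stood at 6147, 6495 and 6150 CPM in wild type and 8417, 11573 and 7756 CPM in knockout libraries. The wild type libraries were within 1.06-fold of each other and the knockout libraries within 1.49-fold. The log2 fold change was 0.56 ± 0.19 (SE), a 1.48-fold difference, with an edgeR adjusted p of 0.214, and 0.37 without knockout replicate 2. Cyp2f2 stood at 1800, 2141 and 2147 CPM in wild type and 2604, 1745 and 1507 CPM in knockout libraries, a log2 fold change of -0.06 with a 95% interval of -0.52 to 0.41. Cyp2g1, an olfactory epithelium P450, was counted 7, 14 and 8 times in wild type libraries and 12, 36 and 30 times in knockout ones, a log2 fold change of 1.39 ± 0.48 (SE). It passed the count rule through 4 libraries, 3 of them knockout, so its direction follows in part from the rule. The other 8 listed genes of the central zone that are no P450 had a median log2 fold change of 0.10, of which Axin2, Slc1a2 and Tbx3 had positive values with an unadjusted p under 0.05, and 0 passed the adjusted threshold. Glul, the glutamine synthetase that marks the innermost hepatocytes, was at 0.09 ± 0.11 (SE).

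The 2j genes, epoxygenases of arachidonic acid, differed in direction. Cyp2j9 stood at 8.19, 9.12 and 11.3 CPM in wild type and 18.1, 12.8 and 21.2 CPM in knockout libraries. No value overlapped, at a log2 fold change of 0.87 ± 0.20 (SE) and an edgeR adjusted p of 0.111. None of its 50-base stretches is shared with another gene. Its neighbour Cyp2j6 stood at 110, 116 and 112 CPM in wild type and 92.9, 98.9 and 75.6 CPM in knockout libraries, again without overlap, at a log2 fold change of -0.34 ± 0.11 (SE). Cyp2j5, the abundant hepatic member, had a log2 fold change of -0.02 with a 95% interval of -0.25 to 0.21.

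Among the remaining family 2 genes, Cyp2u1, a fatty acid hydroxylase with male-biased expression, had the lowest p of the 42. It stood at 31.2, 35.3 and 36.1 CPM in wild type and 23.3, 21.8 and 15.6 CPM in knockout libraries. All knockout values lay below all wild type values, at a log2 fold change of -0.76 ± 0.15 (SE) and an edgeR adjusted p of 0.0837. In each fit with 1 library left out it lay between -0.87 and -0.60. Cyp2r1, the vitamin D 25-hydroxylase, stood at 21.6, 22.8 and 22.6 CPM in wild type and 20.1, 17.4 and 20.2 CPM in knockout libraries. Its groups did not overlap and its log2 fold change was -0.22 ± 0.10 (SE). The other gene on the male-biased list, Cyp2d9, had a log2 fold change of -0.02. Of the 10 listed female-biased genes, Cyp3a41a and Cyp3a41b end in a letter, fall outside the symbol rule and had 0 counts. Of the other 8, 4 were followed, all with positive log2 fold changes (median 0.40). Among these 4, only Cyp2a4 had an unadjusted p under 0.05. Cyp2c40, Cyp2c69, Cyp2a4 and Cyp2c39 share 72.1%, 54.8%, 38% and 12% of their 50-base stretches with other genes. Cyp2c40 at 6.27, 10.8 and 9.70 CPM in wild type and 11.7, 10.8 and 11.4 CPM in knockout libraries was the 1 without overlap, though its lowest knockout and highest wild type values nearly met, and its log2 fold change fell from 0.35 to 0.15 without wild type replicate 1. The other 4 (Cyp2b9, Cyp2b13, Cyp3a16 and Cyp3a44) had at most 9 counts in any library.

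Subfamily 3a, which oxidises steroids and many drugs, held 3 positive and 1 negative log2 fold changes among 4 followed genes. Cyp3a11, its main inducible gene, stood at 767, 779 and 493 CPM in wild type and 643, 820 and 587 CPM in knockout libraries, a log2 fold change of 0.008 with a 95% interval of -0.44 to 0.46. Cyp3a13 stood at 160, 143 and 145 CPM in wild type and 170, 199 and 181 CPM in knockout libraries, without overlap, at a log2 fold change of 0.30 ± 0.10 (SE, edgeR adjusted p = 0.194). Cyp3a25 stood at 382, 361 and 383 CPM in wild type and 330, 603 and 293 CPM in knockout libraries. Its log2 fold change was 0.12 with all libraries, with a 95% interval of -0.43 to 0.67, and -0.27 without knockout replicate 2. Cyp3a59, the last of the 4 followed genes, was at -0.19 ± 0.37 (SE).

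**Figure D4:**
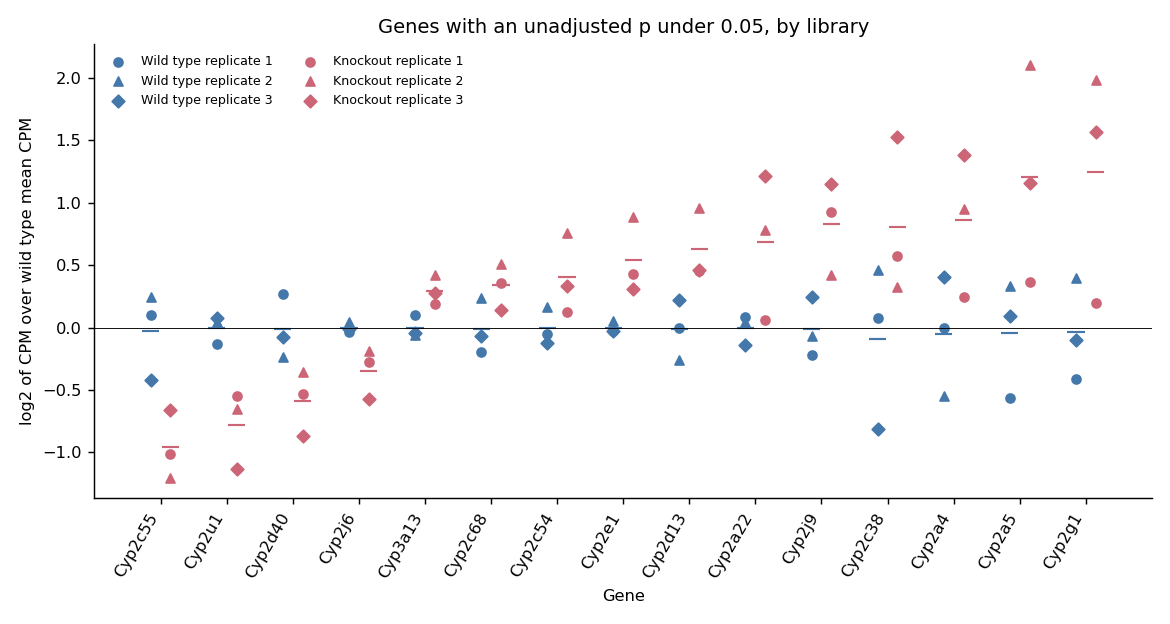
log2 of CPM over the wild type mean CPM in each library for the 15 genes with an unadjusted p under 0.05, with bars at the mean of the log2 values and a marker shape per replicate number. Cyp2a5, Cyp2e1, Cyp2d13 and Cyp2c54 have their highest point in knockout replicate 2, while Cyp2j9, Cyp2c38, Cyp2a4 and Cyp2a22 have it in knockout replicate 3.

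The knockout libraries differed among themselves more than the wild type libraries did. Knockout replicate 2 held the highest of the 6 values in 18 of the 42 genes, a larger share than its 18.7% of all tested genes. Knockout replicate 3 held the lowest in 14 of the 42, also a larger share than its 18.7% of all tested genes. The coefficient of variation was larger in the knockout than in the wild type libraries for 33 of the 42 genes (78.6%) and for 60.1% of all tested genes. Its median over the 42 genes was 14.4% in wild type and 22.5% in knockout libraries, and over all tested genes 9.83% and 12.3%.

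The partners of these enzymes were described from a list of electron transfer partners and a list of regulators. Por stood at 123.3, 223.3 and 208 CPM in wild type and 563, 526 and 617 CPM in knockout libraries, a log2 fold change of 1.62 ± 0.21 (SE, edgeR adjusted p = 0.0348). It was the 1 of 4 tested electron transfer partners that rose. Its edgeR adjusted p was 0.0837 without wild type replicate 2 and 0.0642, 0.074 and 0.0604 without knockout replicate 1, 2 or 3. For Cyb5r3, which reduces cytochrome b5, the value was -0.07, for Cyb5b -0.21 and for the heme-binding partner Pgrmc1 0.02. Of the 15 regulators Nr1i3 was the 1 that rose and 0 fell. Ppara, the fatty acid receptor, was at 0.52 ± 0.19 (SE), not past the threshold.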

How the data were processed

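Deposited read counts per gene symbol, whole numbers without normalization, were used for 6 libraries. Per the submitters' processing notes, the tools were TopHat2 2.0.8b, HTSeq and CASAVA 1.8.2, and the builds mm9 and hg19, without a stated role. Neither the gene annotation nor the strandedness of counting is stated, so reads of overlapping genes may not be separated. The 5 closing rows naming no gene entered neither totals nor tests. Reads outside genes were 9.65% to 12.5% of uniquely placed reads and ambiguous ones 0.594% to 0.662%, with 1.49 to 2.65 multi-position alignments for each gene count.

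All genes were tested with edgeR 4.0.16 (R 4.3.3): filterByExpr with its minimum count of 10, TMM, quasi-likelihood test with genotype as the only term, 2-sided, Benjamini-Hochberg over 12522 genes, threshold 0.05. SE and 95% intervals derive from the F statistic. CPM uses TMM library sizes. Library sizes limit the precision of genes with few counts. The test was checked on simulated counts. Alternatives were DESeq2 1.42.0, other scalings and filters, a replicate block and each library left out. The symbol rule uses no measured value, but the gene families it covers and the gene lists were chosen with earlier results of these data known. P450 genes were named if they passed the threshold, had an unadjusted p under 0.05, an absolute log2 fold change of at least 1 without overlap or 1 of the 10 highest mean CPM, or stood on the CYP1, CAR, PXR or sex-bias lists. Of other genes, the partners and regulators past the threshold or with an unadjusted p under 0.05 were named, with Por, Cyb5r3, Nr1i2, Nr1i3, Ahr and Arnt. Any further gene with values was chosen after its values were seen. 1 gene that this rule names is not reported here. Lists are described without a set test. Names, lengths and sequences come from RefSeq GRCm38.p6 and GENCODE M21, which differ from the noted builds. 58 of 59 symbols matched GENCODE.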

Additional observations from a re-analysis of the deposited data

How the results depend on the processing

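The P450 genes called numbered 0 by edgeR with all libraries and in 5 of the 7 other settings that kept all libraries. They numbered 1 (Cyp2u1) with no filter and 6 with DESeq2. With 1 library left out they numbered 0 in each of the 6 fits. Over all genes 27 of 12522 were called, against 133 of 16764 with no filter and 435 of 12292 with DESeq2. With 1 library left out between 3 and 36 were called. The summed share difference ranged from 0.0998 to 0.408 percentage points with 1 library left out.

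With the replicate number as a block 1 gene of all tested was called and 0 of the P450 genes. Deviations of same-numbered libraries correlated at -0.0827, -0.098 and -0.0413, and those of differently numbered libraries at -0.0506 to 0.125. These values cannot show whether the numbers pair the samples, which the labels do not state. With the block Cyp1a2 was at a log2 fold change of -0.0197, and Por and Nr1i3 had edgeR adjusted p of 0.0585 and 0.0539. The edgeR adjusted p of Cyp2a5 was 0.0941 with the block and 0.166 without it. For Cyp2u1 it was 0.144 with the block and 0.0837 without it.

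Genes whose log2 fold change was near 0 changed sign. With total-count scaling Cyp1a2 was at -0.0328, Cyp2d26 at -0.0419 and Cyp3a11 at -0.0393. With 1 library left out the range was -0.384 to 0.317 for Cyp1a1, -0.214 to 0.223 for Cyp1a2, -0.984 to 0.261 for Cyp1b1, -0.102 to 0.226 for Cyp2c50, -0.283 to 0.0679 for Cyp2c70, -0.0767 to 0.126 for Cyp2d26, -0.181 to 0.193 for Cyp2d9, -0.32 to 0.101 for Cyp2f2, -0.0493 to 0.022 for Cyp2j5, -0.177 to 0.114 for Cyp3a11 and -0.267 to 0.315 for Cyp3a25. The cause was not tested. Of the genes with few counts, Cyp1b1, Cyp2b10, Cyp2d11 and Cyp2d12 had SE of 0.55, 0.53, 0.57 and 0.49 on the log2 scale and Cyp2s1, Cyp2a22 and Cyp2a4 of 0.38, 0.33 and 0.37. The parts of depth and of spread between libraries in these were not separated.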
